A study of Mus musculus with 9 samples.

Results

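The cytosolic ribosomal protein genes were followed in mouse Tfh (T follicular helper) cells. The cells came from Peyer's patches, groups of lymphoid follicles in the gut wall. Tfh cells are the CD4 T cells that help B cells in germinal centres. The members were taken by name: Rpsa, Rplp0, Rplp1 and Rplp2, and every gene called Rps or Rpl with a number and at most 1 further letter. Genes with -ps in the name, a mark of pseudogenes, and the Rps6k kinases were left out. Rps4l is annotated as a pseudogene but has no -ps in its name, and was kept. This gave 81 of the 54146 genes in the table, 32 of the small and 49 of the large ribosomal subunit. Of these, 78 passed the filter on low counts (32 small, 46 large), and Rpl10l, Rpl39l and Rpl3l did not. Sorted CD4+CXCR5+PD1+ cells gave 5 libraries from mice with the genotype WT/mut at Tgfbr1, a receptor subunit for TGF-beta (replicates 6 to 10), and 4 from WT littermates (replicates 1, 3, 4 and 5). The labels give no age, sex, strain or batch and do not say what the mutation is. They also do not say whether each library is 1 animal, so p-values measure the spread between these libraries, which may be partly technical.

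Ribosomal proteins fold onto ribosomal RNA to make the 2 ribosomal subunits, and the cell needs them in matched amounts. In vertebrates their mRNAs begin with a pyrimidine tract, the terminal oligopyrimidine (TOP) motif, through which the growth kinase complex mTORC1 and the RNA-binding protein Larp1 control their translation. Lymphocytes make more ribosomes when they are activated and divide. The mRNA level measured here is not the translation of these mRNAs and not the number of ribosomes.

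Each library began from 300 pg of RNA, and total counts per library lay between 29488851 and 43872732. WT/mut 7 stood apart, with counts in 30143 genes against 17904 to 20264 in the other 8 libraries. The 8 Tfh genes used as a check (among them Cxcr5, Pdcd1 and Bcl6) summed to 6074 to 6391 CPM in WT/mut libraries and 6148 to 7523 CPM in WT libraries, where CPM are counts scaled to a common library size. None of the 8 passed the test, and 2, Icos and Il21, had an unadjusted p under 0.05 in the lower direction. In both, every WT/mut library lay below every WT library. The log2 fold change (WT/mut over WT) was -0.52 for Icos (edgeR adjusted p = 0.072) and -0.55 for Il21 (edgeR adjusted p = 0.142). Marker lists of other cells summed to less, though not every single gene was lower. The 7 plasma cell markers summed to 406 to 1380 CPM in WT/mut libraries and 88.7 to 385 CPM in WT libraries. The 5 red cell genes summed to 401 to 870 CPM in WT/mut libraries and 98.5 to 282 CPM in WT libraries. Igha, a plasma cell marker, stood at 155 to 657.5 CPM in WT/mut libraries, where Bcl6 stood at 394 to 452 CPM. The 8 B cell markers summed to 247 to 549 CPM in WT/mut libraries and 119 to 299 CPM in WT libraries, and the 8 intestinal epithelial markers to 32.0 to 250 CPM in WT/mut libraries and 45.7 to 431 CPM in WT libraries. In bulk RNA, fewer cells of a type and less RNA per cell cannot be told apart.

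No ribosomal protein gene passed the test between WT/mut and WT cells, yet nearly all had the same sign. Of 78 tested members, 0 were called higher and 0 lower at an adjusted p under 0.05 (edgeR quasi-likelihood test, Benjamini-Hochberg over 15521 genes), where 0.0322% of all tested genes were called higher and 0.0902% lower. The log2 fold change (WT/mut over WT) was positive in 76 members, or 97.4%, against 50.2% of all tested genes. Its median over the members was 0.40, against 0.0015 over all tested genes. All members are measured in the same 9 libraries, so 76 positive values are not 76 independent observations. An unadjusted p under 0.05 was reached in the higher direction by 23 members, or 29.5%, against 5.69% of all genes, and in the lower direction by 0 members, against 6.46%. DESeq2 on the same counts also called 0 members, with a lowest adjusted p of 0.0807, while calling 0.986% of all genes higher and 0.87% lower. It gave 43 members an unadjusted p under 0.05 in the higher direction, against 6.92% of all genes.

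Both subunits shared the sign. Among the 32 tested small subunit members 30 were positive, with a median of 0.48, and 10 had an unadjusted p under 0.05. Among the 46 tested large subunit members 46 were positive, with a median of 0.38, and 13 had an unadjusted p under 0.05. The difference between the subunits was not tested.

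**Figure D1:**
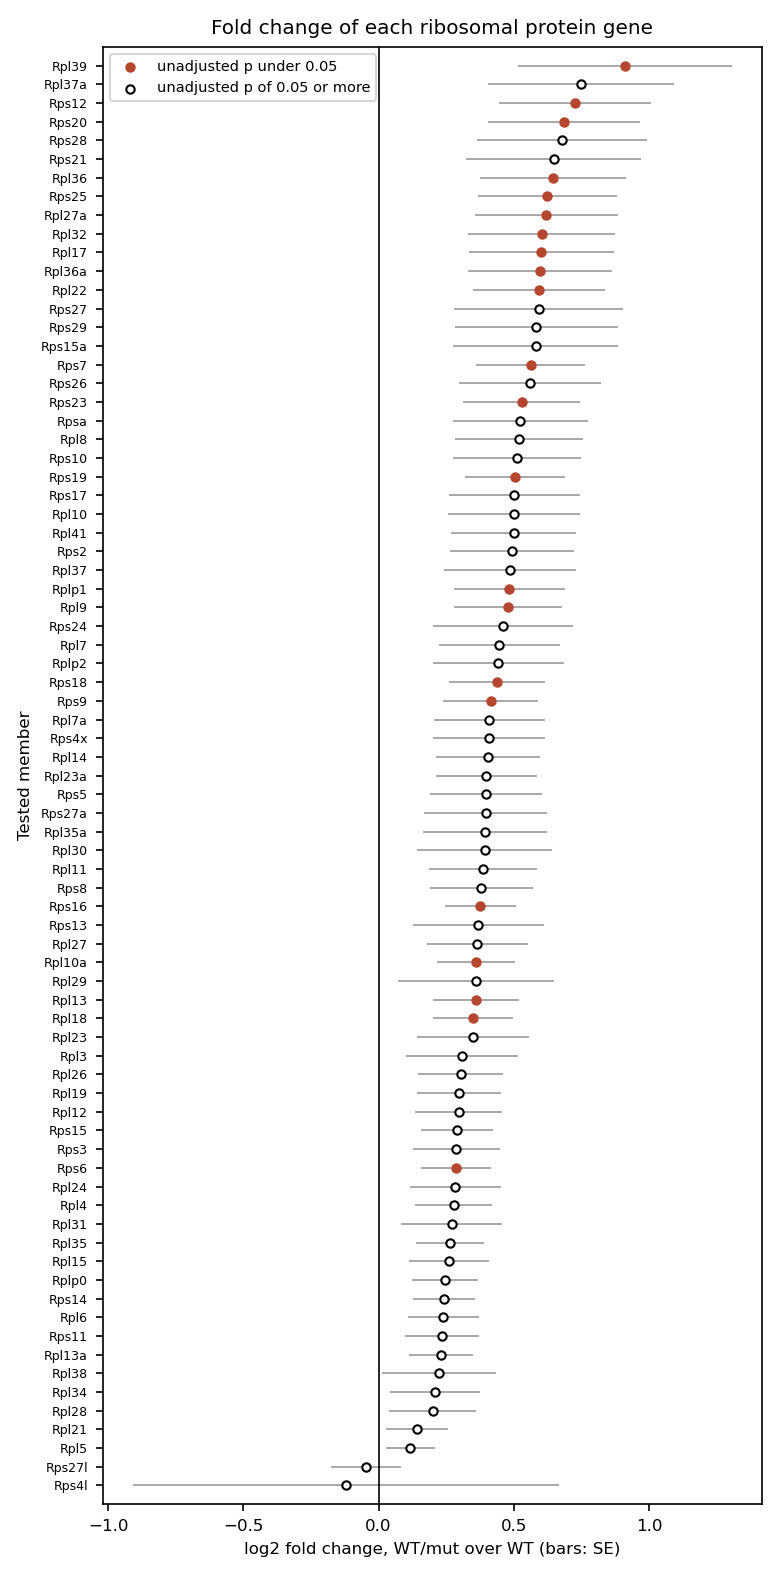
Log2 fold change, WT/mut over WT, of 77 of the 78 tested members (x axis, with SE bars), sorted from highest to lowest; filled points had an unadjusted p under 0.05. The points lie between 0.91 for Rpl39 and -0.12 for Rps4l, and all but Rps27l and Rps4l are right of 0.

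The members took 0.905%, 1.03%, 0.854%, 1.33% and 0.889% of all gene counts in WT/mut libraries 6, 7, 8, 9 and 10, against 0.574%, 0.925%, 0.837% and 0.670% in WT libraries 1, 3, 4 and 5. The groups overlapped, since WT 3 lay above 3 of the 5 WT/mut libraries. WT/mut 9 was the highest library and WT 1 the lowest. The means were 1.00% ± 0.196 in WT/mut (SD, n = 5) and 0.752% ± 0.158 in WT (SD, n = 4), a difference of 0.250 percentage points, and of 0.167 without WT/mut 9.

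**Figure D2:**
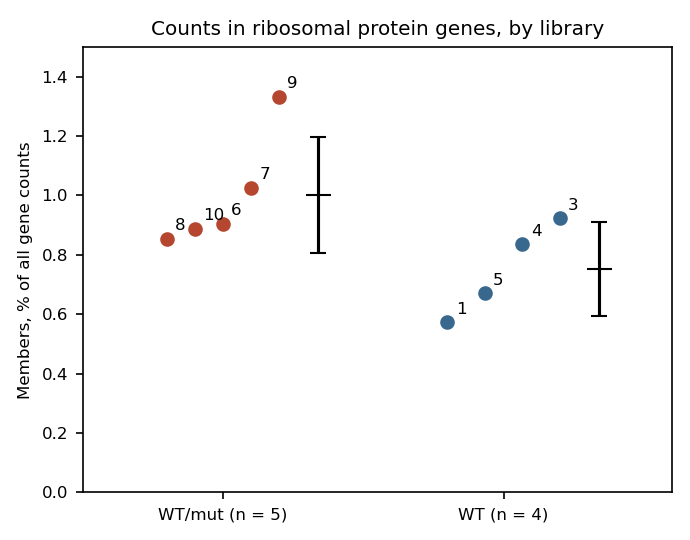
Percent of all gene counts that fell on the 81 members (y axis) in each library, with the replicate number beside each point and the mean with SD to the right of each group. WT/mut 9 stands at 1.33% above all others, while WT 3 at 0.925% lies within the WT/mut range and WT 1 at 0.574% lies lowest.

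The same few libraries stood out in gene after gene. WT/mut 9 was above every other library in 76 of 78 tested members, and WT/mut 7 ranked second in 58. WT 1 was the lowest library in 60 members and WT 5 in 14. WT 1 was below every WT/mut library in 76 members and WT 5 in 57, whereas this held for WT 3 in 7 and for WT 4 in 33. Among the 77 protein-coding members, WT/mut 9 was a median of 1.65 times the median of the other 4 WT/mut libraries, with a range from 1.18 for Rplp0 to 2.67 for Rpl39. WT 1 was a median of 0.677 times the median of the other 3 WT libraries, from 0.329 for Rpl39 to 1.04 for Rps14. For WT 5 the median was 0.856, from 0.510 for Rps2 to 1.68 for Rpl29. Without WT/mut 9 the members' median log2 fold change was 0.24, and without WT 1 it was 0.29. The count of members with an unadjusted p under 0.05 was 4 without WT/mut 9, 4 without WT 1, 4 without WT 5, 10 without WT/mut 7, 37 without WT/mut 8 and 48 without WT 3. Of all genes tested, 4.54% had such a p in the higher direction without WT/mut 9, 4.85% without WT 1, 5.31% without WT 5, 4.26% without WT/mut 7, 5.19% without WT/mut 8 and 7.27% without WT 3.

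**Figure D3:**
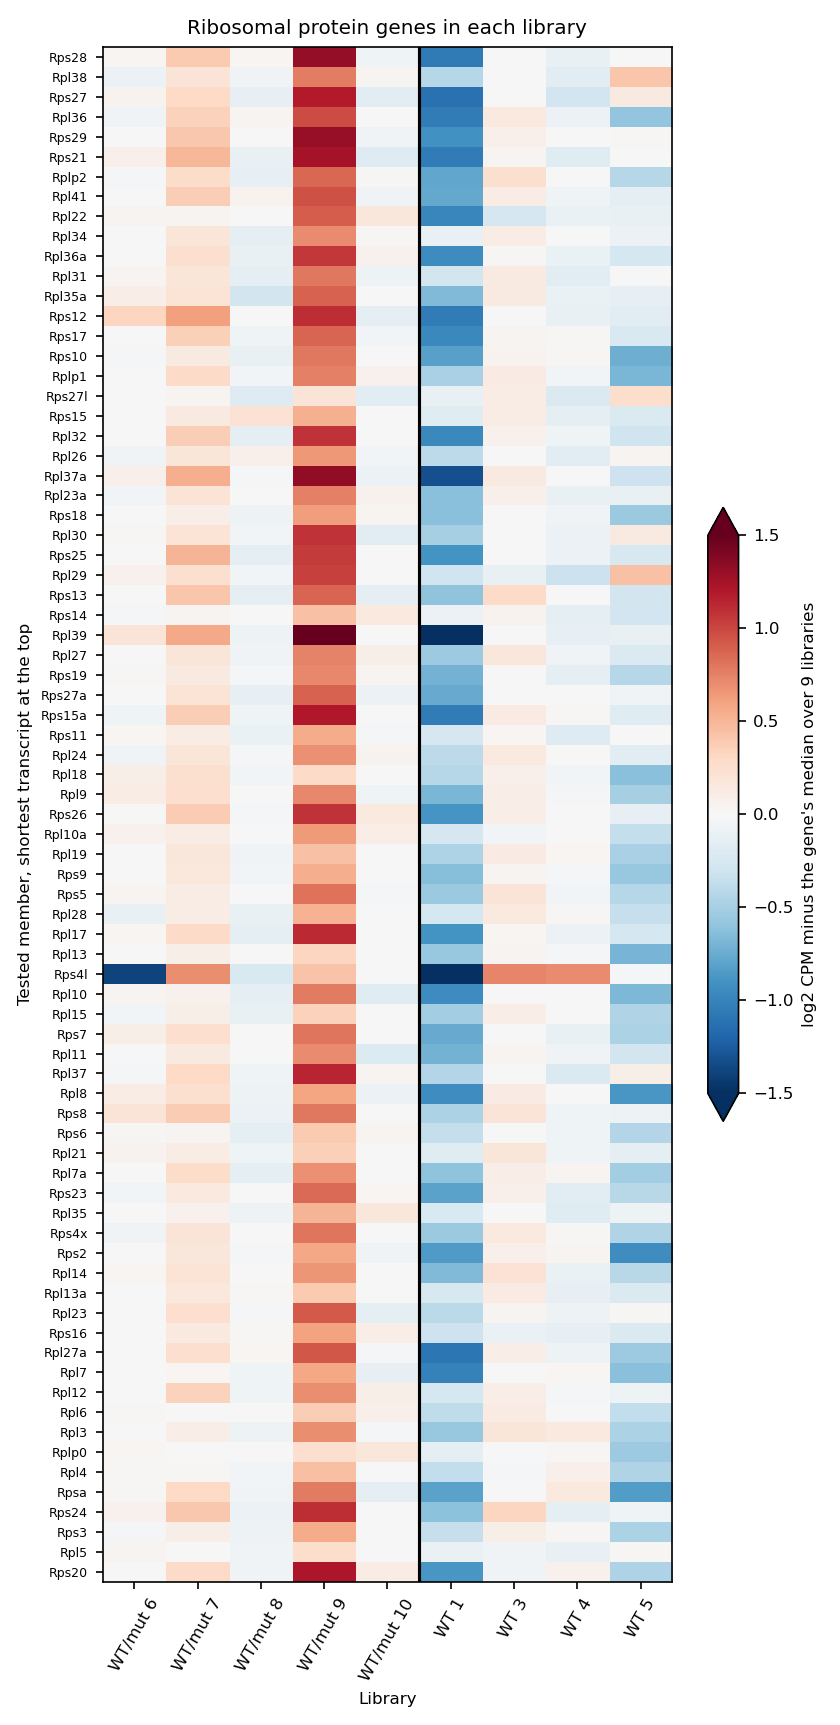
Log2 CPM of 77 of the 78 tested members (rows, shortest transcript at the top) in each library (columns), minus the gene's median over the 9 libraries; WT/mut libraries are left of the black line. The column of WT/mut 9 is above the median in nearly every row and that of WT 1 below it, while WT 3 and WT 4 look much like WT/mut 6, 8 and 10.

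Separate ranges, with every WT/mut library above every WT library, were found for 4 members, among them Rps16, Rpl10a and Rpl22, or 5.13%, against 2.09% of all tested genes. No member had the opposite order, against 2.38% of all genes. Without WT 3 the count of members with separate ranges was 22, against 3.91% of all genes tested then, and without WT/mut 8 it was 8, against 3.03%.

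Rps16, a small subunit protein whose tail reaches the transfer RNA in the peptidyl site, stood at 97.5, 108, 98.6, 148 and 104 CPM in WT/mut libraries 6 to 10 and at 78.6, 90.9, 89.6 and 84.2 CPM in WT libraries 1, 3, 4 and 5. The gap between the groups was narrow, and WT/mut 9 again stood apart. The fitted log2 fold change was 0.38 ± 0.13 (SE; edgeR adjusted p = 0.324). Rps19, whose human counterpart is mutated in Diamond-Blackfan anaemia, stood at 215, 233, 207, 350 and 218 CPM in WT/mut libraries and 129, 212, 191 and 158 CPM in WT libraries. Here WT 3 lay above WT/mut 8, and WT/mut 9 was far above all others. Rps7, which can bind the ubiquitin ligase MDM2, stood at 90.0, 101, 84.5, 148 and 85.0 CPM in WT/mut libraries and 50.4, 84.9, 78.8 and 61.0 CPM in WT libraries. Its highest WT library, WT 3, differed little from WT/mut 8 and 10. The log2 fold changes were 0.51 ± 0.18 for Rps19 and 0.56 ± 0.20 for Rps7 (edgeR adjusted p of 0.333 and 0.329).

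Rps12, known in Drosophila for a part in cell competition, stood at 28.96, 35.4, 23.1, 49.9 and 21.1 CPM in WT/mut libraries and 11.1, 23.3, 21.4 and 20.7 CPM in WT libraries. WT 1 was far below the next WT library in this gene, and WT 3 and WT 4 lay above WT/mut 10. Its log2 fold change was 0.73 ± 0.28 (edgeR adjusted p = 0.350). Rps20, a protein of the small subunit head, stood at 45.2, 55.2, 43.5, 105 and 48.8 CPM in WT/mut libraries and 24.6, 43.5, 47.1 and 32.7 CPM in WT libraries. WT/mut 9 was far above the next library, and WT 4 lay among the other WT/mut libraries. The log2 fold change of Rps20 was 0.69 ± 0.28 (edgeR adjusted p = 0.375).

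Further small subunit members were examined for known roles beyond the ribosome or for their level. Rps6, the substrate of the S6 kinases downstream of mTORC1, averaged 271 ± 38.3 CPM in WT/mut cells and 223 ± 33.0 CPM in WT (SD, n = 5 and n = 4, as for all means of CPM; log2 fold change 0.29 ± 0.13 SE, edgeR adjusted p = 0.409). Rps3, which also acts in DNA repair and with the transcription factor NF-kappa-B, averaged 241 ± 48.3 CPM in WT/mut cells and 197 ± 36.9 CPM in WT (0.29 ± 0.16, edgeR adjusted p = 0.481). Rps14, lost in a human myelodysplastic syndrome, averaged 240 ± 33.0 CPM in WT/mut cells and 202 ± 19.5 CPM in WT (0.24 ± 0.11, edgeR adjusted p = 0.421). Rpsa, also described as a laminin receptor, spread more, with 281, 341, 268, 477 and 254 CPM in WT/mut libraries and 159, 278, 309 and 156 CPM in WT libraries. Its WT 1 and WT 5 values were far below WT 3 and WT 4, which lay within the WT/mut range (0.52 ± 0.25, edgeR adjusted p = 0.423).

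In the large subunit, the 3 proteins of the stalk that recruits translation factors differed in size of the difference. Rplp1 averaged 121 ± 30.5 CPM in WT/mut cells and 86.4 ± 22.3 CPM in WT, a log2 fold change of 0.48 ± 0.21 (edgeR adjusted p = 0.386). Rplp2 averaged 77.1 ± 23.9 CPM in WT/mut cells and 56.7 ± 17.2 CPM in WT (0.44 ± 0.24, edgeR adjusted p = 0.473). Rplp0, the base of the stalk, averaged 257 ± 21.3 CPM in WT/mut cells and 217 ± 36.0 CPM in WT (0.25 ± 0.12, edgeR adjusted p = 0.440). Among the protein-coding members, Rplp0 had the lowest ratio of WT/mut 9 to the median of the other WT/mut libraries.

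Rpl39, a very small protein that lines the tunnel through which new proteins leave the ribosome, had the highest log2 fold change. It stood at 31.4, 40.9, 26.0, 78.7 and 27.5 CPM in WT/mut libraries and 8.39, 27.7, 25.3 and 25.5 CPM in WT libraries. WT/mut 9 lay far above and WT 1 far below the other 7 libraries, of which WT 3, 4 and 5 were within 2 CPM of WT/mut 8. The log2 fold change was 0.91 ± 0.40, with an edgeR adjusted p of 0.391. Rpl37a, a zinc-binding large subunit protein, had the next highest (0.75 ± 0.34, edgeR adjusted p = 0.413), at 79.3, 110, 73.9, 190 and 70.8 CPM in WT/mut libraries and 30.1, 83.2, 75.5 and 61.0 CPM in WT libraries. The order of the libraries was again that of Rpl39 at both ends.

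Rpl10a, the protein of the mobile L1 stalk, stood at 80.6, 83.2, 77.0, 120 and 82.7 CPM in WT/mut libraries and 64.5, 75.0, 76.4 and 60.01 CPM in WT libraries. The groups were separate by less than 1 CPM, between WT/mut 8 and WT 4 (log2 fold change 0.36 ± 0.14, edgeR adjusted p = 0.367). Rpl22, which mice need for the development of alpha-beta T cells, stood at 19.5, 19.4, 18.9, 35.4 and 21.3 CPM in WT/mut libraries and 9.50, 15.9, 17.7 and 17.5 CPM in WT libraries. Apart from WT/mut 9, the WT/mut libraries of Rpl22 were close together at 18.9 to 21.3 CPM (0.59 ± 0.24, edgeR adjusted p = 0.374).

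Rpl5 and Rpl11 bind ribosomal RNA together and, when free of the ribosome, bind MDM2. Rpl5 showed little spread, at 126, 123, 118, 147 and 124 CPM in WT/mut libraries and 114, 118, 114 and 124 CPM in WT libraries, and WT 5 lay among the WT/mut libraries. Rpl5 had a log2 fold change of 0.12 ± 0.09 (edgeR adjusted p = 0.601). Rpl11 averaged 77.5 ± 20.5 CPM in WT/mut cells and 59.2 ± 12.8 CPM in WT, a log2 fold change of 0.39 ± 0.20 (edgeR adjusted p = 0.455). Rpl13a, which in human monocytes also silences inflammatory mRNAs, averaged 134 ± 16.9 CPM in WT/mut cells and 114 ± 14.0 CPM in WT (0.23 ± 0.12, edgeR adjusted p = 0.451). Rpl21 averaged 159 ± 18.8 CPM in WT/mut cells and 144 ± 17.2 CPM in WT (0.14 ± 0.11, edgeR adjusted p = 0.610).

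Rpl38, which in mouse embryos favours the translation of Hox mRNAs, departed from the usual order of the WT libraries. It stood at 44.6, 54.2, 45.7, 80.8 and 48.8 CPM in WT/mut libraries and 35.3, 47.3, 42.0 and 63.2 CPM in WT libraries. WT 5, low for most members, was the second highest library here (0.22 ± 0.21, edgeR adjusted p = 0.671). Rpl29, a heparin-binding protein, showed the same exception at a low level, with 6.80, 7.69, 6.29, 13.4 and 6.49 CPM in WT/mut libraries and 5.26, 5.99, 5.18 and 8.84 CPM in WT libraries. Again WT 5 followed WT/mut 9 as the second highest (0.36 ± 0.29, edgeR adjusted p = 0.612).

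Some members have a paralog named with a final l. Rps27l is made in response to p53, Rpl3l in heart and skeletal muscle, and Rpl10l and Rpl39l in male germ cells. The coding sequences of 2 such pairs are printed because reads shared between parent and paralog would blur the values that follow. They are from GENCODE M21 transcripts of GRCm38, and capitals mark the bases at which the 2 sequences of a pair differ. Rps27 lies on chromosome 3 from 90212522 to 90213651 (minus strand) and Rps27l on chromosome 9 from 66946086 to 66949516 (plus strand), and their coding sequences of 255 bases share 194 bases, or 76.1%. Rpl39 lies on chromosome X from 37082520 to 37085402 (minus strand) and Rpl39l on chromosome 16 from 10170226 to 10174911 (plus strand), and their coding sequences of 156 bases share 133 bases, or 85.3%.
Rps27: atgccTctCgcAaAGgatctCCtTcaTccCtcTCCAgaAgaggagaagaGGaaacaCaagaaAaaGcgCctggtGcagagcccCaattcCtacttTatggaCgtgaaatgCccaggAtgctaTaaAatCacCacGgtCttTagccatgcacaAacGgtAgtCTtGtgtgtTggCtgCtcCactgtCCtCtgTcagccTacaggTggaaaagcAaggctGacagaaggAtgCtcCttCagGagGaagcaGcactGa
Rps27l: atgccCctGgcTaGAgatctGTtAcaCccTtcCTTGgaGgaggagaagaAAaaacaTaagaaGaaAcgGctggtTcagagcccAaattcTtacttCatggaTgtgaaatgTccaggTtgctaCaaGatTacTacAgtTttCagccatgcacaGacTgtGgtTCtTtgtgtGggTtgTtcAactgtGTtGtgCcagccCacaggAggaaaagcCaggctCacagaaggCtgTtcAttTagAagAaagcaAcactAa
Rpl39: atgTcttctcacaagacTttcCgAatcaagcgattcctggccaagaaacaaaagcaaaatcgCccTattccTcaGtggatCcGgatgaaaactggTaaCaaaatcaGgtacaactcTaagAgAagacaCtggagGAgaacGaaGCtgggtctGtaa
Rpl39l: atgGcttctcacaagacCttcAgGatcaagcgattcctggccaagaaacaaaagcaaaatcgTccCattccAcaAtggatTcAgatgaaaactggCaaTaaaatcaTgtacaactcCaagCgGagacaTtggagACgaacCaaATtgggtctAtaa
Rpl10 and Rpl10l shared 84.8% of the aligned coding bases, and Rpl3 and Rpl3l 73.3%.

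Rps27l did not follow its parent Rps27. Rps27 stood at 149, 176, 132, 326 and 128 CPM in WT/mut libraries and 65.8, 143, 117 and 157 CPM in WT libraries, with the usual extremes WT/mut 9 and WT 1 (log2 fold change 0.59 ± 0.31, edgeR adjusted p = 0.459). Rps27l stood at 47.2, 48.7, 41.1, 53.8 and 42.0 CPM in WT/mut libraries and 43.8, 51.1, 40.6 and 56.8 CPM in WT libraries. The groups overlapped throughout, WT 5 was the highest library, and WT 1 lay among the others (-0.05 ± 0.13, edgeR adjusted p = 0.907). Its sign turned to 0.04 without WT 5.

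Rpl39l was seen at few counts, 17 over the WT/mut libraries and 67 over the WT libraries. The ratio per total count was 0.234, with an exact 95% interval from 0.129 to 0.403 that covers the counting of reads only. It stood at 0.060, 0.13, 0.16, 0 and 0.14 CPM in WT/mut libraries and 0.38, 0.60, 0.15 and 0.58 CPM in WT libraries. The ranges overlapped at WT/mut 8 and WT 4, and the gene was below the filter, so no test across libraries was made. Rpl10l had 4 counts in WT/mut and 10 in WT libraries, and Rpl3l had 1 count, in WT/mut 9. Rps4l, annotated as a transcribed processed pseudogene, averaged 0.83 ± 0.42 CPM in WT/mut cells and 0.90 ± 0.63 CPM in WT (log2 fold change -0.12 ± 0.79, edgeR adjusted p = 0.959), far below its X-linked relative Rps4x at 137 ± 38.9 CPM in WT/mut cells and 103 ± 24.4 CPM in WT (0.41 ± 0.21, edgeR adjusted p = 0.450). Rpl10, a late-joining protein needed for export of the large subunit, averaged 168 ± 51.2 CPM in WT/mut cells and 119 ± 37.6 CPM in WT (0.50 ± 0.24, edgeR adjusted p = 0.433). Rpl3, near the peptidyl transferase centre, averaged 218 ± 54.9 CPM in WT/mut cells and 176 ± 47.7 CPM in WT (0.31 ± 0.21, edgeR adjusted p = 0.542).

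Per kilobase of transcript, ribosomal protein genes were among the most abundant mRNAs of these cells. The median level over the tested members was 144 CPM per kilobase in WT/mut and 110 CPM per kilobase in WT, against 9.60 in WT/mut and 9.64 in WT for 12627 other tested protein-coding genes. In WT cells 93.8% of those other genes lay below the members' median. Rpl13 was the highest by its WT level, with 577 CPM per kilobase in WT/mut and 449 in WT. Rps27 followed with 528 in WT/mut and 350 in WT, and Rps14 with 402 in WT/mut and 339 in WT. Among the tested protein-coding members, Rps20 was lowest by its WT level, with 16.1 in WT/mut and 9.98 in WT, and Rpl29 was lowest by its WT/mut level, with 13.9 in WT/mut and 10.8 in WT. The annotated Rps20 transcript used here has 3706 bases, so its level per kilobase is uncertain. Apart from the products of Rplp1 and Rplp2, ribosomal proteins occur in equal numbers in a ribosome, but these mRNA levels per kilobase were not equal.

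Transcript length was not used to choose the members, and they are short, with a median of 705 bases against 2737 bases for the other protein-coding genes. The library differences varied with it. Among 18 protein-coding members under 500 bases, WT/mut 9 exceeded the other WT/mut libraries by a median of 0.88 on the log2 scale, among 42 of 500 to 1000 bases by 0.69, and among 17 of at least 1000 bases by 0.61. WT 1 departed from the other WT libraries by -0.84, -0.56 and -0.38 in these classes. WT 5 ran the other way, with -0.04, -0.25 and -0.36. The median log2 fold change of the members was 0.51 in the shortest, 0.40 in the middle and 0.35 in the longest class. Other protein-coding genes above 5 CPM shared part of this. In their shortest class (60 genes) the median log2 fold change was -0.07, WT/mut 9 stood at 0.36 and WT 1 at 0.04, in the middle class (619 genes) the values were -0.13 for the fold change, 0.04 for WT/mut 9 and 0.23 for WT 1, and in the longest (8843 genes) -0.03, -0.03 and 0.03. For WT 5 the values were 0.30, 0.09 and -0.01 from the shortest to the longest class. WT/mut 9 and WT 5 thus declined with length in both sets, while WT 1 and the fold change did not follow the members' order. These classes are a description with no test, and the short class of other genes is small. Each length is that of 1 annotated transcript, and that of Rps20, at 3706 bases, is uncertain.

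**Figure D4:**
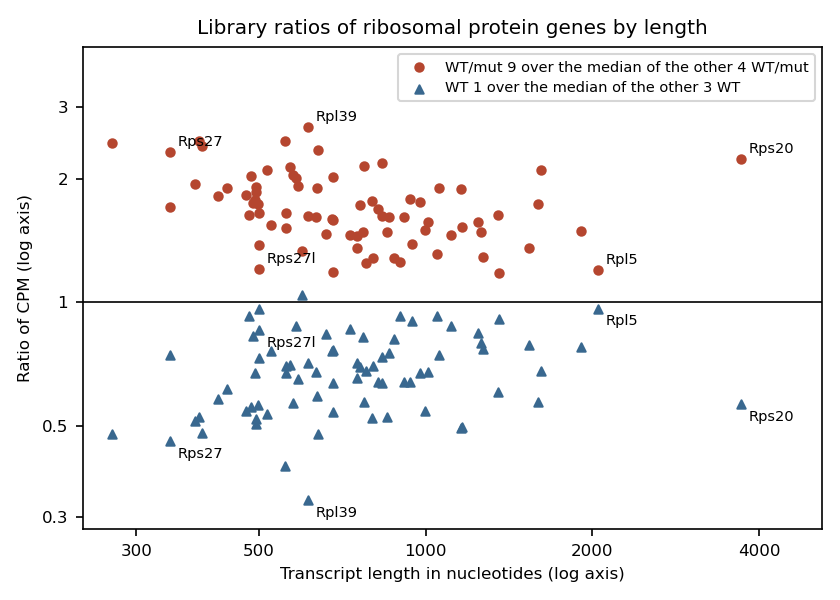
Ratio of CPM (log axis) against transcript length (log axis) for the 77 protein-coding members; circles show WT/mut 9 over the median of the other 4 WT/mut libraries and triangles WT 1 over the median of the other 3 WT libraries. All circles lie above 1, up to 2.67 for Rpl39, and nearly all triangles below 1, with wide gaps among short transcripts and for Rps20, and small ones for Rps27l and Rpl5. The length of Rps20 is uncertain.

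Of the 81 members, 60 had an entry in the RefSeq promoter table of GRCm38.p6, which holds 250 bases before and 50 bases after each gene's start. CTTTC or CTTCC, short pieces of a TOP-like pyrimidine start, stood on the gene's own strand within 30 bases either side of the start in 36 of these 60 members, or 60%, against 21.8% of all 27025 genes with an entry and 24.2% of the 9525 other tested genes. A run of at least 8 C or T bases in the same window, which can overlap those pieces, was found in 34 members, or 56.7%, against 25.8% of all genes and 25.4% of the other tested genes. CCGGAA, the core bound by ETS family factors, stood on either strand of the 300 bases in 33 members, or 55%, against 16.7% of all genes and 31% of the other tested genes. TCGCGA, a palindrome, was found in 13 members, or 21.7%, against 2.86% of all genes and 5.46% of the other tested genes. These matches describe letters in a window, not bound sites. Whether they go with the fold change was not tested. Rps19, Rps6 and Rpl10 had neither CTTTC nor CTTCC in the window nearest their annotated start, and their log2 fold changes were positive. Of 2 members printed without CTTTC or CTTCC, Rps16 had separate ranges, and Rps27l did not move with the rest. The Rps27l window does hold runs of at least 8 C or T bases. Windows of 60 bases around the RefSeq start are printed for these 2 and for 4 members with CTTTC or CTTCC, in capitals. Their positions on GRCm38.p6 are chr7:141447621-141447680 (plus strand) for Rplp2, chr12:28635924-28635983 (minus) for Rps7, chr3:90213619-90213678 (minus) for Rps27, chrX:37085193-37085252 (minus) for Rpl39, chr7:28350659-28350718 (plus) for Rps16 and chr9:66946056-66946115 (plus) for Rps27l.
Rplp2: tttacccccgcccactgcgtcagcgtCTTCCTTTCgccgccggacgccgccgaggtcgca
Rps7: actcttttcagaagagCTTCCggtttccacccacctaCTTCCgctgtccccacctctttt
Rps27: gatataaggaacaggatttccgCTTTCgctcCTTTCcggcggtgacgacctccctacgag
Rpl39: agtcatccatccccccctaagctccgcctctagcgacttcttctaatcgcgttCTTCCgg
Rps16: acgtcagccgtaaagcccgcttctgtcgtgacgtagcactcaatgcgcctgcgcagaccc
Rps27l: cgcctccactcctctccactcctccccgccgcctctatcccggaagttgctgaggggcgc

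Related genes were read from the same fit, and none of the 5 lists held a called gene. The 7 ribosomal protein genes that the naming rule leaves out (such as Fau and Rack1) had a median log2 fold change of 0.34, with 6 positive and 1 at an unadjusted p under 0.05. That one was Rpl22l1, the paralog of Rpl22, at 39.5 ± 8.26 CPM in WT/mut cells and 29.1 ± 6.90 CPM in WT (0.44 ± 0.20, edgeR adjusted p = 0.407). The 16 translation factors and related genes with TOP mRNAs had a median of 0.22, with 14 positive and 3 at an unadjusted p under 0.05 in the higher direction. Eef1g, an elongation factor subunit, averaged 123 ± 17.1 CPM in WT/mut cells and 87.5 ± 23.3 CPM in WT (0.49 ± 0.17, edgeR adjusted p = 0.325). Eef2, which moves the ribosome along the mRNA, averaged 297 ± 59.3 CPM in WT/mut cells and 214 ± 58.0 CPM in WT (0.47 ± 0.19, edgeR adjusted p = 0.366).

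The remaining lists, of genes that build ribosomes and of mTORC1 and MYC, had medians between -0.08 and 0.03. The 30 ribosome biogenesis factors had a median log2 fold change of -0.08, with 9 positive and 21 negative. An unadjusted p under 0.05 in the lower direction was reached by 4 of them, against 6.46% of all tested genes. The lowest p among them belonged to Nob1, a nuclease of small subunit maturation, at 33.3 ± 4.64 CPM in WT/mut cells and 44.5 ± 8.62 CPM in WT (-0.42 ± 0.16, edgeR adjusted p = 0.340), and Nop2, a ribosomal RNA methyltransferase (-0.30 ± 0.12, edgeR adjusted p = 0.371). The 12 genes of RNA polymerase I, which transcribes ribosomal RNA, had a median of -0.0015 with 6 positive. Its members Taf1b (-0.27 ± 0.12, edgeR adjusted p = 0.391) and Polr1b (-0.37 ± 0.16, edgeR adjusted p = 0.403), had an unadjusted p under 0.05. The 18 tested genes of mTORC1 and MYC had a median of 0.03 with 10 positive. This list mixes genes that promote the pathway with genes that restrain it, so its median gives no direction of the pathway. Rheb, the activator of mTORC1, had -0.42 ± 0.17 (edgeR adjusted p = 0.368) and Eif4e, the cap-binding protein, -0.29 ± 0.13 (edgeR adjusted p = 0.406). Whether these lists differ from the members was not tested.

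By library, the TOP translation factors were highest in WT/mut 9 and lowest in WT 1, as the members were, while the biogenesis factors were highest in WT 1. In WT/mut 9 the median deviation from each gene's own median was 0.76 on the log2 scale for the members, 0.41 for the TOP translation factors and -0.01 for the biogenesis factors. In WT 1 it was -0.61 for the members, -0.42 for the TOP translation factors and 0.23 for the biogenesis factors.

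**Figure D5:**
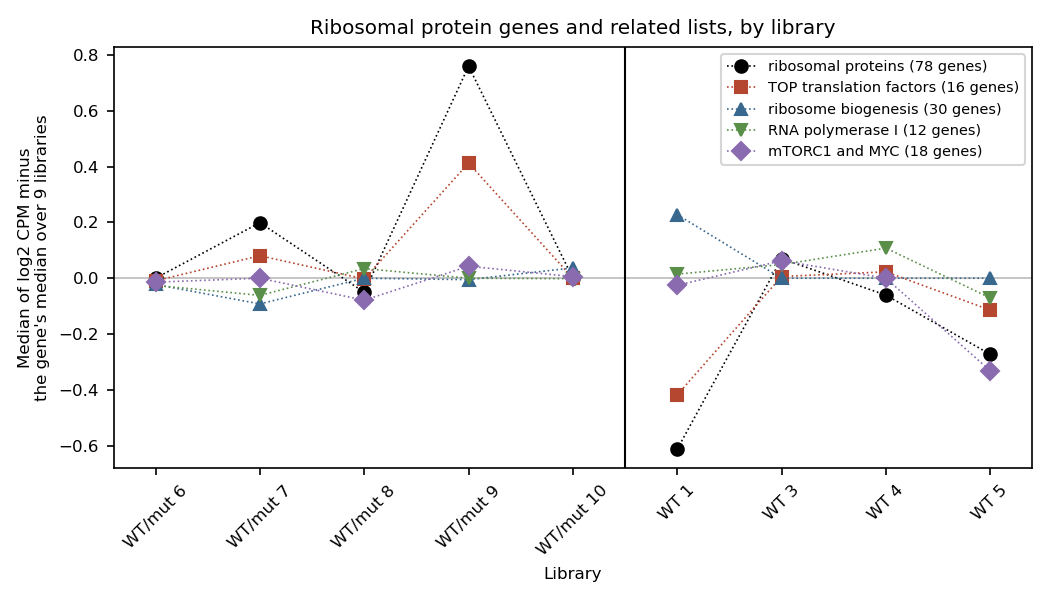
Median over each list of log2 CPM minus the gene's own median over the 9 libraries (y axis), by library (x axis), with WT/mut left of the line; dotted lines only join the points of a list. The members and the TOP translation factors are highest in WT/mut 9 (0.76 and 0.41) and lowest in WT 1 (-0.61 and -0.42), while the biogenesis factors are at -0.01 in WT/mut 9 and 0.23 in WT 1.

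Markers of B cells and of dividing cells had the same highest and lowest library as the members, WT/mut 9 and WT 1, but did not follow them in every other library. The 8 B cell markers, all at a positive log2 fold change with a median of 0.81, 3 at an unadjusted p under 0.05 and 0 called, summed to 338, 247, 329, 549 and 264 CPM in WT/mut libraries and 119, 234, 299 and 174 CPM in WT libraries. Among the WT/mut libraries they were lowest in WT/mut 7, which ranked second for most members. The 10 proliferation genes, all positive with a median of 0.55, 5 at an unadjusted p under 0.05 and 0 called, summed to 306, 289, 292, 455 and 318 CPM in WT/mut libraries and 251, 264, 291 and 260 CPM in WT libraries. The median deviation of the B cell markers was -0.17 on the log2 scale in WT/mut 7 and 0.19 in WT 4, where that of the members was 0.20 in WT/mut 7 and -0.06 in WT 4. For the proliferation genes it was near the members' values in these libraries, at 0.19 in WT/mut 7 and -0.03 in WT 4. In WT 3 it was -0.27, where the members stood at 0.07. Mcm2 and Mcm5 were the highest proliferation genes and weigh most in the sums of that list. With the mean level of the B cell markers as a covariate the members' median log2 fold change was 0.026, and with that of the proliferation genes it was 0.0088. No member then had an unadjusted p under 0.05 in the higher direction. Of all genes tested, 2.87% had one with the B cell covariate and 2.84% with the proliferation covariate. Both covariates and the members share the extremes WT/mut 9 and WT 1, and their part in the result cannot be told apart from that of these libraries.

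The sums of the plasma cell markers and of the red cell genes did not overlap between the groups. The 7 plasma cell markers summed to 406 to 1380 CPM in WT/mut libraries and 88.7 to 385 CPM in WT libraries, with 5 of 6 tested genes positive, 4 at an unadjusted p under 0.05 and 0 called. With their share as a covariate the members' median was 0.37. Then 1 member had an unadjusted p under 0.05 in the higher direction, against 1.42% of all genes tested. The 5 red cell genes summed to 401 to 870 CPM in WT/mut libraries and 98.5 to 282 CPM in WT libraries, with 5 at an unadjusted p under 0.05 and 0 called. Their part in the result was not tested. The share of counts in mitochondrially encoded genes was 2.75%, 3.29%, 2.36%, 10.1% and 1.88% in WT/mut and 1.38%, 3.19%, 5.91% and 2.72% in WT libraries, again highest in WT/mut 9 and lowest in WT 1. With it as a covariate the members' median was 0.32, with 0 called. Then 51 members had an unadjusted p under 0.05 in the higher direction, against 7.1% of all genes tested. Rows of ribosomal protein pseudogenes held 0.0174% to 0.0299% of counts in WT/mut and 0.0121% to 0.0208% in WT libraries, and the members' median was 0.41 with those counts added to their parents.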

How the data were processed

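Poly(A) RNA of sorted Tfh cells was made into unstranded SMART-Seq libraries, per the labels' protocols, so reads of overlapping genes on opposite strands cannot be told apart. The authors deposited expected counts per gene, made with cutadapt 2.10, STAR 2.5.3 and RSEM 1.3.0 on mm10, per the submitters' processing notes, which also name DESeq2. The annotation used is not given in the sources here. Reads that fit several genes are divided by the RSEM model, so members with pseudogenes or paralogs are uncertain; between 11.1% and 18.3% of values per library were not whole, and all were rounded. Of the gene identifiers, 54079 matched GENCODE M21, whose principal coding transcript gave lengths.

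The test was edgeR 4.0.16 (R 4.3.3; robust quasi-likelihood fit, TMM, no covariate) on 15521 genes that passed filterByExpr (minimum count 10, total 15), with Benjamini-Hochberg adjustment and a threshold of 0.05. CPM values use TMM-scaled library sizes, and an SE is the absolute log2 fold change over the square root of F. The kit adds no molecular identifiers, so the exact interval of Rpl39l covers the counting of reads only, not of molecules or the spread between libraries. The fit was also run on simulated counts. Each gene was drawn independently there, while the members shift together by library, so that run does not bear on their result. Alternatives used DESeq2 1.42.0, limma 3.58.1, other scalings, filters and covariates, and leaving out each library; the B cell and mitochondrial covariates were chosen after seeing the data. Named members are the stalk proteins with Rpsa, the paralogs named with l and their parents, the 6 of lowest p, the 4 of highest and 4 of lowest fold change, the 3 of highest and 3 of lowest WT level per kilobase, and 8 with known further roles; from each related list the 2 genes of lowest p are named. 2 genes that this rule names are not reported here. Members and lists were chosen with earlier results of these data known.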

Additional observations from a re-analysis of the deposited data

Results flagged for a closer look

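A single library lay far from the others of its group (Dixon's ratio, 95% level) in 18 cases among 30 named members with over 50 counts and the members' sum. Chance alone gives such a case in about 1 of 20 groups, and values of different members in 1 library are not independent. In 17 of the 18 the library was WT/mut 9, the highest of its group. It held 13988 CPM over the members, 326 CPM of Rps27, 205 of Rps4x, 315 of Rpl3, 257 of Rpl10, 78.7 of Rpl39, 148 of Rps16, 148 of Rps7, 350 of Rps19, 120 of Rpl10a, 105 of Rps20, 147 of Rpl5, 529 of Rpl13, 13.4 of Rpl29, 35.4 of Rpl22, 325 of Rps3 and 80.8 of Rpl38. The remaining case was Rpl39 in WT 1, the lowest of its group at 8.39 CPM.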

How the results depend on the processing

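In 25 other settings 0 members were called. The count of members with an unadjusted p under 0.05 in the higher direction, 23 in the report, was 38 with library size alone, 40 with no filter, 43 with DESeq2, 51 with the mitochondrial share as covariate, 6 with the number of detected genes, 1 with the plasma cell marker share, 1 with library weights in limma-voom, and 0 with the proliferation or the B cell markers. Of all genes tested, 6.57% had such a p with library size alone, 8.58% with no filter and 6.92% with DESeq2. The part of all genes was 7.1% with the mitochondrial share, 4% with detected genes and 1.42% with the plasma cell marker share. Library weights gave 4.98%, the proliferation markers 2.84% and the B cell markers 2.87%. Leaving out 1 library gave 4 to 48 members, against 4.26% to 8.83% of all genes tested. With no filter the median log2 fold change of all 34361 genes with a count was 0.39, near the members' 0.40. These include the genes below the filter, and WT/mut 7 had counts in 30143 genes, the most of any library. In the other settings the median of all tested genes lay between -0.015 and 0.035. The members' median was 0.22 with library weights in limma-voom. Members with separate ranges numbered 4 to 22 when 1 library was left out, while 2.66% to 5.14% of all genes tested had them, and the difference in the share of counts lay between 0.167 and 0.307 percentage points. With the proliferation covariate 46 members were positive, the members' median was 0.0088 and that of the other ribosomal protein genes -0.0075. With the B cell covariate the medians were 0.026 for the members, 0.0033 for the other ribosomal protein genes, -0.016 for the TOP translation factors and -0.15 for RNA polymerase I. The plasma cell covariate gave 0.10 for biogenesis factors and -0.077 for RNA polymerase I.

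Among the named members, 704 log2 fold changes under other settings kept their sign and 21 did not. With the proliferation covariate the sign turned for Rplp2 (-0.023), Rps27 (-0.11), Rps4x (-0.0039), Rpl3 (-0.071), Rpl5 (-0.010), Rpl21 (-0.0075), Rpl29 (-0.19) and Rpl38 (-0.22). With the B cell covariate it turned for Rplp2 (-0.023), Rps27 (-0.098), Rpl3 (-0.12), Rpl10 (-0.048), Rpl29 (-0.026), Rpl11 (-0.057) and Rpl38 (-0.11). Rps27l turned to 0.11 with the plasma cell covariate and to 0.042 without WT 5. Rps4l turned to 0.16 with limma-voom and lay between -0.50 and 0.16 when 1 library was left out, positive without WT/mut 6, WT 3 or WT 4. The cause was not tested.

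No paired analysis was possible because the labels do not say which libraries share a litter, and the groups share no replicate numbers. With 5 and 4 libraries, shifts of the size of the members' median are near the spread between libraries, and a missed threshold does not show that levels are alike.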
